A study of Homo sapiens with 36 samples.

Results

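At 372 of 17277 sites in the human erythroid progenitor line HUDEP-2, GATA2 peaks were called with either tagged protein, HA-GATA2 or its mutant HA-GATA2(T354M), but in few wild-type libraries. The 120509 peaks of 28 CUT&Tag lists on chromosomes 1 to 22 and X were merged into sites wherever they overlapped by at least 1 bp. A site was kept when at least 3 of 4 HA-GATA2, at least 3 of 4 T354M and at most 2 of 4 wild-type anti-GATA2 libraries had a peak, so the sites make up 2.15% of all. The sites were thus chosen by the presence of peaks in these 12 libraries, whose values are given below as a description with no test. The anti-GATA2 libraries of GATA2-low cells with empty vector, and all anti-HA libraries, had no part in the choice.

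The study asked how a pathogenic zinc finger mutation changes where GATA2 sits on chromatin. HUDEP-2 is an immortalized human erythroid progenitor line, here grown with erythropoietin, stem cell factor, doxycycline and dexamethasone. Every group was infected with a lentivirus and sorted for GFP before CUT&Tag, in which an antibody tethers a transposase that cuts and tags the DNA around the bound protein. The groups were wild-type cells with empty vector (anti-GATA2), and GATA2-low cells (GATA2+/-) with empty vector, HA-GATA2 or HA-GATA2(T354M), each taken with anti-GATA2 and with anti-HA, 4 libraries per group. For 1 of the 4 GATA2-low empty-vector anti-GATA2 libraries the genotype label says wild-type, against its title, and the library was grouped by the title. The labels do not say whether the 4 libraries of a group came from separate infections or cultures, so tests over them measure spread that may be only technical. Wild-type cells hold their own GATA2 and no tagged protein, so the effects of genotype and vector cannot be told apart between them, and anti-GATA2 in tagged cells reads the tagged protein and the cell's own GATA2 together.

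GATA2 is a transcription factor with a pair of zinc fingers that acts in haematopoietic stem cells, in mast cells and early in red cell formation. Its fingers bind the sequence WGATAR (A or T, then GATA, then A or G), mostly in distal enhancers, and GATA1 takes over many of those sites as red cells mature. T354M is a missense change in the C-terminal finger, carried in families with myelodysplastic syndrome and acute myeloid leukaemia. The HA tag, a short peptide, lets an antibody see the expressed protein and not the cell's own GATA2.

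Most of the sites lay away from gene starts, so few promoters could be read. Of the 340 sites on chromosomes whose gene starts were used, 10 (2.9%) had their strongest summit within 1 kb of the start of a protein-coding gene. That share was 18.4% of all sites on those chromosomes and 11.6% of the sites called in all 3 groups. In all, 7 promoter windows held a member's summit. A window runs from 250 bases before a gene's start to 50 after it, with sequences from RefSeq (GRCh38.p14). The GATA motif was searched as AGATAA or AGATAG or TGATAA or TGATAG on both strands, so also as TTATCT or CTATCT or TTATCA or CTATCA, and no other motif was searched. It was found in 2 of the 7 windows, against 4406 of 22012 promoter windows in all (20.0%) and 90 of the 242 windows that held a summit of a site called in all 3 groups (37.2%). With 7 windows these shares cannot be compared. Both windows with the motif are shown with each match in capitals, followed by a pair selected from those without it. Base composition was not measured.
ERAP2: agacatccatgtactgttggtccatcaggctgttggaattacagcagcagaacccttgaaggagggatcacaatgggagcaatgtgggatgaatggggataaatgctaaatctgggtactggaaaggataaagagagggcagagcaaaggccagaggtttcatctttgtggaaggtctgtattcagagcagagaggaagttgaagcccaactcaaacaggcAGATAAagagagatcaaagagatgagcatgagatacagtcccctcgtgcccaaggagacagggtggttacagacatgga
C2orf66: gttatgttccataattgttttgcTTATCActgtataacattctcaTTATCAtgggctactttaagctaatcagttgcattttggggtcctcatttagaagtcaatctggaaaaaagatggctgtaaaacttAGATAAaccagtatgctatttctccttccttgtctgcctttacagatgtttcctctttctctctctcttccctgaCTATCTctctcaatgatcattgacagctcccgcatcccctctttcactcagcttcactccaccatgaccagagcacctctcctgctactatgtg
EDEM1: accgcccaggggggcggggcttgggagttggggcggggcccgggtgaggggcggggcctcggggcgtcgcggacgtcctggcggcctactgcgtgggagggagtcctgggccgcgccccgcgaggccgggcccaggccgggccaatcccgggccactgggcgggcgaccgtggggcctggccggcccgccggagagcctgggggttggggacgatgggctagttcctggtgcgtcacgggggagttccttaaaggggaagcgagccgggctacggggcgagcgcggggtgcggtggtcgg
PSMD12: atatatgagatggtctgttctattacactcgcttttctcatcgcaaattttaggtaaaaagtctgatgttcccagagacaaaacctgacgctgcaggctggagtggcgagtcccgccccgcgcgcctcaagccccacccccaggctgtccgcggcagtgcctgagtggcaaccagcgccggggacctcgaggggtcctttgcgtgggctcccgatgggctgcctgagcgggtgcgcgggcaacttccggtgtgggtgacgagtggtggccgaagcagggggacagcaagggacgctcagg

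The window of ERAP2, an aminopeptidase that trims peptides in the endoplasmic reticulum, is chr5:96875734-96876033 on the plus strand, and the middle of its AGATAA lies 34 bp from the summit. The window of C2orf66 is chr2:196809306-196809605 on the minus strand and holds 4 matches, the middle of the nearest 16 bp from the summit. The windows of EDEM1, which sorts misfolded glycoproteins for degradation, and PSMD12, a proteasome subunit, are chr3:5187457-5187756 (plus) and chr17:67366528-67366827 (minus). No match says only that these letters are not in these windows.

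By width the sites fell between the shared sites and those called mainly with HA-GATA2, an order that the choice of the sets favours. A site's width is the extent of its merged peaks over all lists, so it can grow with the number of libraries with a peak. That number defined the sets, so the widths are a description only. The median width of the 372 sites was 589.5 bp, against 767.0 bp for the 3444 sites with a peak in at least 3 of 4 libraries of all 3 groups. It was 425.0 bp for the 3888 sites called mainly with HA-GATA2. These had a peak in at least 3 of 4 HA-GATA2, at most 2 of 4 T354M and at most 2 of 4 wild-type libraries. No wild-type peak was called at 2615 of the 3888, and no T354M peak at 2924. Gene starts on chromosome 8, which holds 32 of the sites, were not used. By position, 197 of the 372 (53.0%) lay inside a protein-coding gene, a share of 53.6% at the sites of all 3 groups. Another 38 (10.22%) were more than 100 kb from any such gene, against 8.57% of all sites. Within 10 kb of a site called in all 3 groups lay 59 (15.9%), against 15.2% of all sites. Both shares were near those of all sites. The sites were spread over every chromosome used, from 3 on chromosomes 21 and X to 36 on chromosome 6.

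The depth of the libraries is unknown, since peak lists hold no read totals. Whole fragments and the background at each summit were recovered from the caller's fold and p-value, and the summit height below is fragments at the summit divided by the lowest background that recurs in that list, taken as the genome-wide level. That background, which rises with depth, was 0.222 to 0.302 fragments in the wild-type lists, 0.153 to 0.213 in the GATA2-low empty-vector lists, 0.427 to 0.434 with HA-GATA2 and 0.42 to 0.587 with T354M. The caller had scaled the tagged anti-GATA2 libraries down, to 0.28 to 0.305. The lists held 6555 to 9121 peaks in wild-type cells, 7064 to 12171 with HA-GATA2, and 2779 to 6311 with T354M, whose replicate 2 had the shortest. Anti-HA lists held 1912 to 6065 peaks with HA-GATA2, 426 to 744 with T354M and 1 to 6 with empty vector. Read as occupancy, since no expression was measured, 6 of 12 erythroid marker genes had a GATA2 peak in all 4 wild-type libraries and 5 had none in any.

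Summits at the sites were higher with HA-GATA2 than with T354M, while the number of sites called overlapped between the groups. With HA-GATA2, 337, 370, 371 and 369 of the 372 sites had a peak in replicates 1 to 4, and 331 sites had one in all 4. With T354M the counts were 342, 176, 369 and 368, and 139 sites had a peak in all 4. At 196 of the 233 sites that missed 1 T354M library, that library was replicate 2. Median summit heights were 96.0, 124.9, 134.4 and 129.1 times background with HA-GATA2 and 57.5, 52.8, 69.7 and 76.2 with T354M. The HA-GATA2 libraries were all above the T354M libraries. Averaged over libraries with a peak, the median site stood at 121.1 with HA-GATA2 (range 44.6 to 616.7) and 65.0 with T354M (range 35.3 to 368.1).

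The T354M height was below the HA-GATA2 height at all but 22 of the 372 sites (5.91%), and at all but 4.59% of the 3444 shared sites. The median ratio of T354M to HA-GATA2 was 0.569, with quartiles of 0.443 and 0.733. At the 3444 sites of all 3 groups it was 0.583 (0.487 to 0.709), so the ratio at the chosen sites lay close to that at the shared sites. Heights there were greater for either protein, with medians of 215.0 and 124.5.

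**Figure D1:**
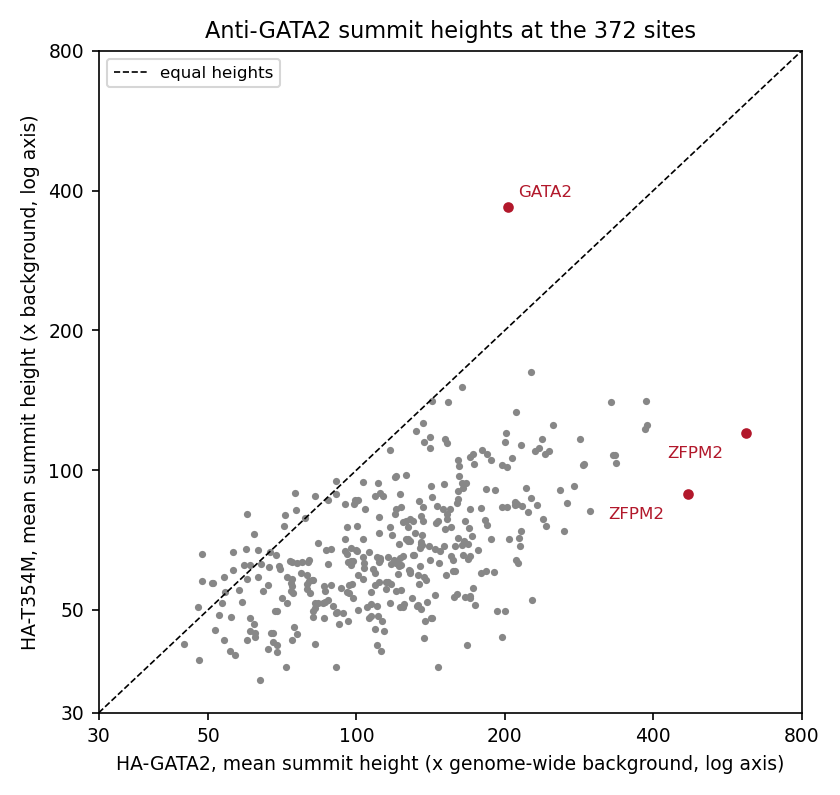
Mean anti-GATA2 summit height of each of the 372 sites with HA-GATA2 (horizontal, log axis) and with T354M (vertical, log axis), in multiples of the genome-wide background, each point a site and the dashed line equal heights. Nearly all points lie under the line; GATA2 is the highest point above it and both ZFPM2 sites lie farthest below it.

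In wild-type cells 228 of the 372 sites had a peak in 1 or 2 libraries, and the 4 libraries differed. Replicates 1 to 4 had a peak at 37, 32, 145 and 153 of the 372 sites. No wild-type peak was called at 144 sites, 1 library had one at 89 and 2 had one at 139. Of the 228 sites with a wild-type peak, 163 had it in replicates 3 or 4 only and 18 in replicates 1 or 2 only. Replicates 3 and 4 had the lower background estimates, 0.246 and 0.222, against 0.289 and 0.302 in replicates 1 and 2, and the part of this difference between libraries in the choice of sites was not tested. Where a wild-type peak was called, median heights were 48.5, 46.4, 73.3 and 76.5, a range that overlaps that of the T354M medians.

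The depth of the wild-type lists can be set against the T354M heights. At the mean T354M height of each site without a wild-type peak, the wild-type libraries would have held a median of 14.1 to 19.6 fragments and at least 8.3. The weakest peaks called in those lists rested on 7 or 8 fragments, at the lowest background. At the members' own wild-type peaks the local background had a median of 1.55 times that level, where more fragments are needed. The T354M heights were averaged only over libraries with a peak, which the rule required. The part of depth in the missing wild-type peaks was therefore not tested. Scaling the fragments of all 12 libraries to the lowest depth estimate left 358 sites that met the rule, and 343 of the 372 were among them.

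Sites on either side of the rule's thresholds had similar heights. The 139 sites with 2 wild-type peaks had median heights of 133.8 with HA-GATA2 and 73.3 with T354M, and the 214 sites just outside, with 3 wild-type peaks and held by either tagged protein, had 128.9 and 72.5. At the other threshold, 233 sites had T354M peaks in 3 of 4 libraries, with medians of 108.9 and 62.1, and the 333 sites with 2 had 100.8 and 60.2. The sites that met the rule changed most with list length. With all 12 lists shortened to the 2779 strongest peaks of the shortest, 308 sites met the rule, of which 74 overlapped the 372 (19.9%). With a -log10 q of at least 15, 248 sites met it and 177 of the 372 (47.6%) were kept.

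In GATA2-low cells with empty vector, which the rule did not read, most of the sites had no GATA2 peak. The 4 libraries had one at 9, 9, 11 and 38 of the 372 sites, a mean of 4.50% ± 3.82 (SD, n = 4). Replicate 4 stood above the other 3. At 332 sites no such library had a peak, and at 137 neither these nor the wild-type libraries did. Of the 3444 sites of all 3 groups, 57.6% ± 12.99 (SD, n = 4) had a peak in the same libraries. The 3888 sites called mainly with HA-GATA2 had 1.44% ± 1.73 (SD, n = 4). Among all 17277 sites the mean was 13.884% ± 4.795 (SD, n = 4), and 13299 had no peak in these libraries. An absence here was thus common to most sites of the series. These libraries had the lowest depth estimates, and the part of depth in the low share was not tested.

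A few sites ran against that pattern, with peaks in GATA2-low cells of every kind and none in wild-type cells. At 9 sites (2.42%) at least 3 of 4 GATA2-low empty-vector libraries had a peak, against 1829 of all sites (10.59%). Of the 9, 4 had none in wild-type cells, inside PTTG1IP2 and ZSCAN32 and far from MEI4 and FAM76B. In the whole series 6 sites had at least 3 such peaks and none in wild-type cells. The site in ZSCAN32, a zinc finger gene, at chr16:3388221-3388746, had heights of 89.0, 71.3, 142 and 164 with empty vector. It reached 141, 192, 218 and 198 with HA-GATA2 and 79.7, 86.9, 109 and 145 with T354M. The site 149533 bp from MEI4, a gene of meiotic recombination, at chr6:78076239-78076907, had 98.4, 143, 136 and 144 with empty vector. All 4 sites thus had peaks with no tagged protein present, and ZSCAN32, MEI4 and FAM76B were named after their values were seen.

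**Figure D2:**
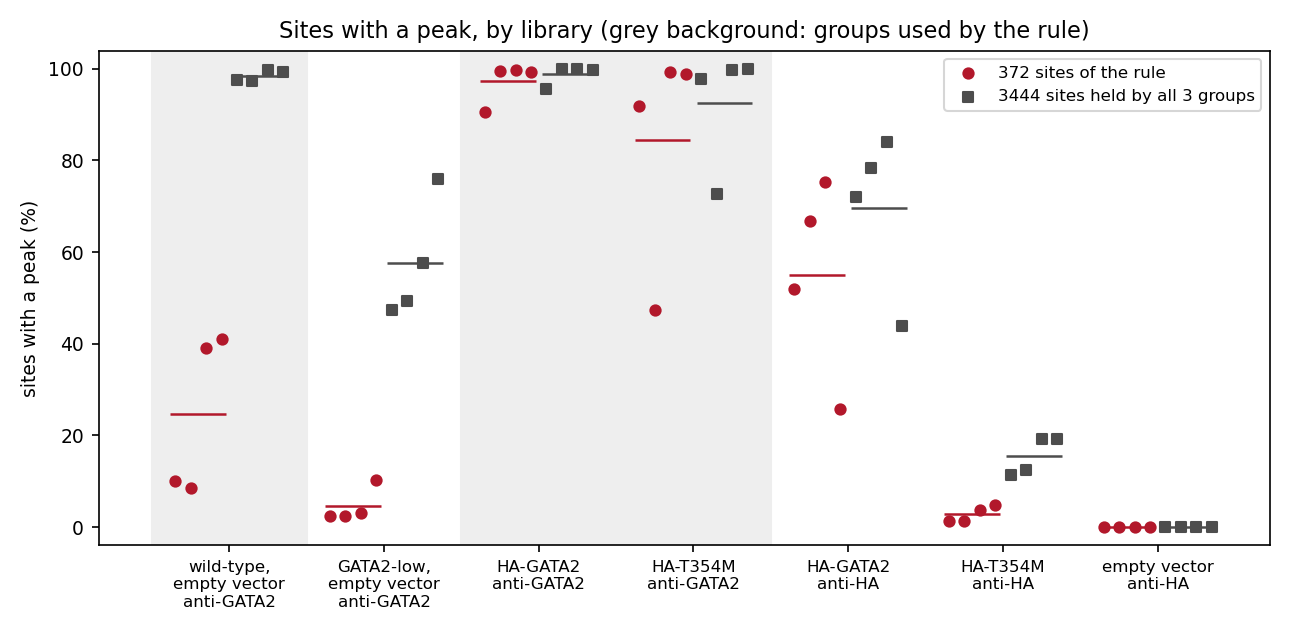
Percent of sites with a peak in each of the 28 libraries, as red circles for the 372 sites and grey squares for the 3444 sites held by all 3 groups, with group means as lines; grey bands mark the groups the rule read. The red circles are low with empty vector and T354M anti-HA, and spread from 25.8% to 75.3% with HA-GATA2 anti-HA.

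The anti-HA antibody, whose libraries the rule did not read, found HA-GATA2 at most of the sites and T354M at few. The rule required anti-GATA2 peaks in cells with the same tagged proteins, so anti-HA peaks at these sites are not independent of the choice. Empty-vector anti-HA libraries had no peak at any of the 372 sites. With HA-GATA2, 193, 248, 280 and 96 sites had a peak, a mean of 54.9% ± 21.7 (SD, n = 4), and 302 sites (81.2%) had one in at least 1 library. With T354M, 5, 5, 14 and 18 sites did, a mean of 2.82% ± 1.76 (SD, n = 4), and 29 sites (7.8%) had one in at least 1 library. Every T354M library was below every HA-GATA2 library. At the 3444 sites of all 3 groups the means were 69.5% and 15.6%, and at the 3888 sites called mainly with HA-GATA2 they were 19.1% and 0.084%. Over all sites they were 24.3% with HA-GATA2 and 3.41% with T354M, so the T354M share at the 372 sites was near that of all sites. The T354M anti-HA lists were short over the whole genome, with a peak in at least 1 library at 6.23% of all sites, against 40.0% with HA-GATA2.

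Site by site, the anti-HA difference reached the largest contrast that 4 libraries allow at 83 sites. Of the 302 sites with an anti-HA peak, 83 (27.5%) had HA-GATA2 in 4 of 4 and empty vector in 0 of 4 libraries, against 25.3% of the 6916 sites tested over the genome, so their share was near the background. T354M against empty vector gave 2 of 29 sites, against 22.3% of 1079. HA-GATA2 against T354M gave 66 of 302 (21.9%), against 13.6% of 6944, and no site showed the opposite contrast. The difference between the members' shares and the background was not tested. Fisher's exact test (two-sided) called 0 sites in each of the 3 comparisons after Benjamini-Hochberg adjustment over all sites tested, a background of 0.0%, and the smallest adjusted p was 0.113, 0.128 and 0.211. Unadjusted, the same 83, 2 and 66 sites had p = 0.0286 by that exact test, the smallest that 4 against 4 libraries can give. Without HA-GATA2 anti-HA replicate 4, the weakest list, 178 and 150 sites in place of 83 and 66 showed the full contrast.

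Anti-HA support rose with the anti-GATA2 height of HA-GATA2 and less with that of T354M. Sites with HA-GATA2 anti-HA peaks in 0, 1, 2, 3 and 4 libraries numbered 70, 57, 58, 104 and 83. Their median HA-GATA2 heights were 77.3, 96.2, 120.2, 132.9 and 168.5, and their median T354M heights 61.5, 61.3, 65.3, 65.6 and 70.5. All 29 sites with a T354M anti-HA peak had HA-GATA2 anti-HA peaks in at least 3 of 4 libraries, as 187 of the 372 sites did (50.3%). At the shared sites the same held for 898 of 928 (96.8%). These sites share libraries and depth, so the counts are a description.

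**Figure D3:**
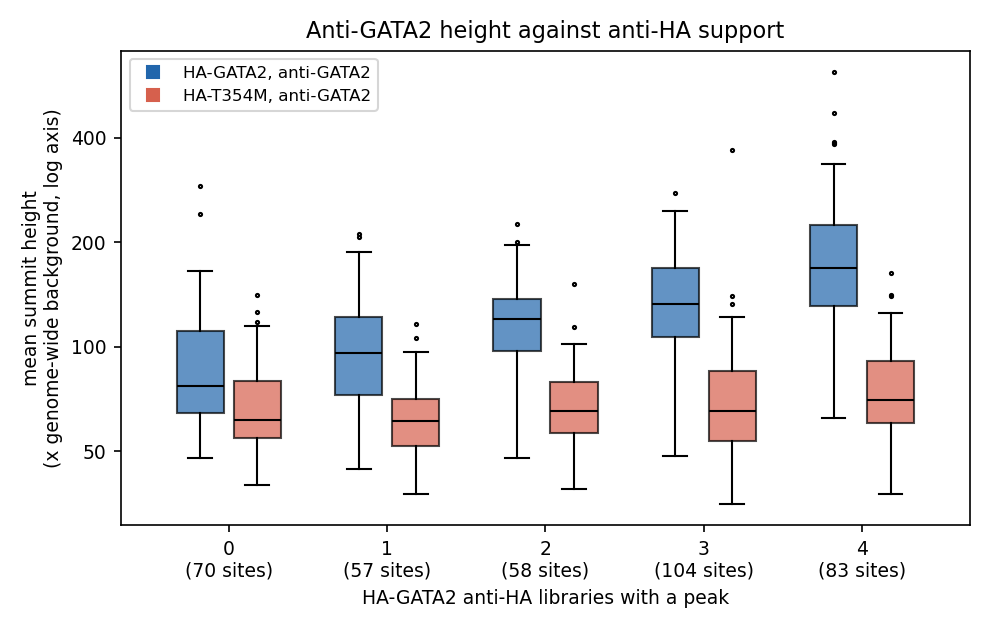
Mean anti-GATA2 summit height (log axis, multiples of the genome-wide background) of HA-GATA2 (blue) and T354M (red) at the 372 sites, split by how many of 4 HA-GATA2 anti-HA libraries had a peak; boxes span the quartiles with the median as a line, whiskers reach 1.5 times the box and dots are sites beyond. The HA-GATA2 medians run from 77.3 to 168.5 and the T354M medians from 61.5 to 70.5.

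The GATA2 gene itself held the site with the highest T354M peaks. The site, chr3:128485735-128487032, lies inside GATA2, 2412 bp from the start used. T354M gave anti-GATA2 heights of 332, 307, 429 and 405, and HA-GATA2 gave 194, 217, 206 and 194. The groups did not overlap, and the ratio of 1.814 was the highest of the 372. With anti-HA, T354M gave 295, 327, 339 and 334, and HA-GATA2 gave 222, 237 and 302 with no peak in replicate 4. One wild-type library, replicate 1, had a peak of 83.1, and no GATA2-low empty-vector library had one. This made it 1 of 3 sites with T354M anti-HA peaks in at least 3 libraries.

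Most peaks at that site shared an outer edge, and edges and blocks were not tabulated at other sites. In 7 of 8 tagged anti-GATA2 libraries the peak began at base 128485754, and in 5 of the 8 the last peak ended at 128487032. In 5 libraries the signal was called as separate blocks, the first ending between 128486351 and 128486380 and the second starting between 128486813 and 128486844. The local background there was 58.2 to 61.9 times the genome-wide level under the main anti-HA peaks. The median over the sites with an anti-HA peak was 1.96 with HA-GATA2 and 1.36 with T354M. Under the main anti-GATA2 peaks the local background was 6.6 to 6.8 with T354M and 5.7 to 7.1 in HA-GATA2 replicates 1 to 3. Under the wild-type peak, in cells with no tagged protein, it was 12.2, and only HA-GATA2 replicate 4 was higher. Medians over the sites with an anti-GATA2 peak were 1.42 to 1.55 in these groups. The vectors carry GATA2 sequence, so fragments of the vector and of the chromosomal gene cannot be told apart in a peak list, and the part of the vector in this site was not tested. The other sites in or near GATA2 with a peak in at least 3 wild-type anti-GATA2 libraries differed among themselves. Those from 128482702 and from 128495069 had an anti-GATA2 peak in 4 of 4 libraries of wild-type, HA-GATA2 and T354M cells. The site from 128487462 had one in 4 wild-type, 1 HA-GATA2 and 3 T354M libraries, and the site from 128493054 had one in 3 wild-type libraries and in 0 with either tagged protein.

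**Figure D4:**
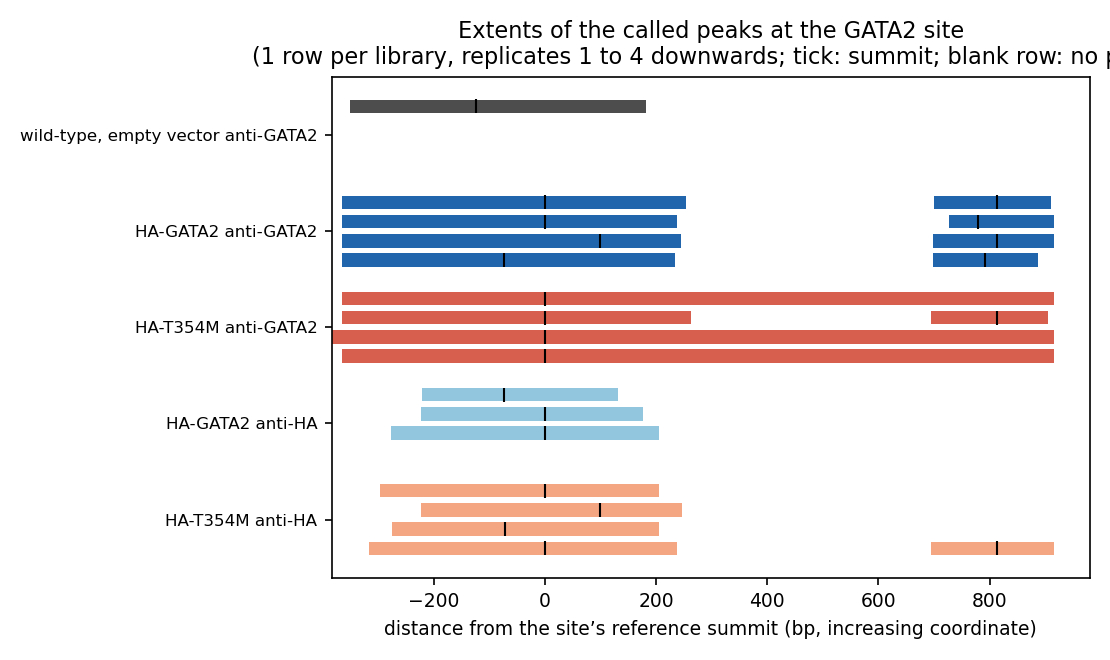
Extents of the called peaks at the site inside GATA2, 1 row per library with a blank row where none was called, in bp from the site's reference summit; ticks mark each library's own summit. Tagged anti-GATA2 peaks begin at the same base in 7 of 8 libraries and fall into 2 blocks in 5 of 8, and the wild-type peak is in replicate 1 only.

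ZFPM2, which encodes the GATA cofactor FOG2, held the opposite extreme at a pair of sites. At chr8:105568721-105569767, HA-GATA2 gave heights of 398, 622, 753 and 694 and T354M gave 86.3, 88.6, 131 and 176. At chr8:105375271-105376179, HA-GATA2 gave 309, 483, 514 and 572, and T354M gave 66.4, 82.7 and 117 with no peak in replicate 2. The groups did not overlap at either site, and the ratios of 0.195 and 0.189 were the lowest of the 372. Wild-type replicates 3 and 4 had peaks at both, of 147 and 144 at the first and 110.0 and 99.1 at the second. With anti-HA, HA-GATA2 reached 204, 262, 296 and 89.1 at the first site and 139, 175, 221 and 96.0 at the second, and T354M had a peak in replicate 4 at the first site only, of 56.2. Of the 16 core GATA2 targets and partners, 2 (12.5%) had a member within 10 kb, ZFPM2 and GATA2, against 1.35% of all protein-coding genes. Of the 16, 15 (93.8%) had any site at all, against 42.1% of all protein-coding genes, and no test of the list was made.

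Among haematopoietic transcription factors, 3 of 40 genes (7.5%) had a member within 10 kb, namely MECOM, FOXO3 and ZEB2, against 1.35% of all protein-coding genes. Of the 40, 29 (72.5%) had any site at all, against 42.1% of all protein-coding genes, and no test of the list was made. MECOM encodes EVI1, a factor of blood stem cells, and its intronic or exonic class was not used here. Its site, chr3:169510315-169510933, had heights of 157, 213, 211 and 226 with HA-GATA2 and 62.0, 71.6, 111 and 88.1 with T354M, with no wild-type or GATA2-low empty-vector peak. HA-GATA2 anti-HA peaks of 65.6, 89.0 and 74.7 were in 3 of 4 libraries there, and T354M had none. FOXO3, a factor of red cell maturation and stress response, had a pair of sites, 1740 and 4159 bp from its start. At the nearer one HA-GATA2 gave 248, 312, 257 and 320.4 and T354M gave 99.6, 124 and 126 in 3 libraries.

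Genes of mast cells, basophils and eosinophils, lineages in which GATA2 acts, had members at 4 of 34 (11.76%), against 269 of 19974 protein-coding genes (1.35%). Of the 34, 22 had any site at all (64.7%), against 8406 of the 19974 (42.1%), and no test of the list was made. CPA3, the mast cell carboxypeptidase, had a site at chr3:148877946-148878558 with HA-GATA2 heights of 131, 178, 181 and 187 and T354M heights of 68.6, 51.1, 84.9 and 95.3. PRG2, the eosinophil major basic protein, had a site 5436 bp away with 143, 222, 248 and 272 with HA-GATA2 and 86.3, 80.5 and 107 with T354M. CCR3, the eotaxin receptor, had 65.6, 113, 134 and 141 with HA-GATA2 and 42.1, 45.7 and 47.6 with T354M. None of these 3 sites had a peak in wild-type cells or with empty vector, HA-GATA2 anti-HA peaks were in 2, 4 and 3 libraries, and T354M had none. ALOX5, an enzyme of leukotriene synthesis, was the other gene.

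Each of the other lists held at most 1 gene with a member within 10 kb. Where it was 1, that was 2.78% to 4.0% of the list, against 1.35% of all protein-coding genes. Counts this small cannot be compared, and no list was tested. In globin and heme synthesis 1 of 25 genes had one, ALAD, an early enzyme of heme synthesis, at 93.7, 118, 134 and 148 with HA-GATA2 and 55.3, 63.1 and 69.1 with T354M. In red cell membrane and iron genes it was 1 of 36, SLC2A1, the main glucose transporter of red cells, with no anti-HA peak. The SLC2A1 site had mean heights of 141.3 with HA-GATA2 and 92.5 with T354M. It also had wild-type peaks of 99.4 and 122 in replicates 2 and 3, and a GATA2-low empty-vector peak of 183 in replicate 4. Lists of neutrophil, lymphocyte and innate immune genes held 1 each, at LTF (lactoferrin), RAG1 (antigen receptor recombination) and MYD88 (Toll-like receptor signalling). No cytokine receptor, megakaryocyte, unrelated-tissue or housekeeping gene of the lists had a member within 10 kb.

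The strongest sites by rank over the 8 tagged libraries mixed genes of many roles. PTTG1IP2 led with a mean percentile of 88.64, where 100 is the highest peak of a list. Its site, chr7:90485628-90486339, had heights of 149.9, 224, 257 and 209.7 with HA-GATA2 and 124, 98.9, 146 and 164 with T354M, with overlap between the groups. It had no wild-type peak, and GATA2-low empty-vector peaks of 56.2, 73.9 and 118. MTSS1, a regulator of membrane curvature and actin, followed at 208, 217, 234 and 244 with HA-GATA2 and 144, 118, 155 and 236 with T354M, and the groups overlapped. ITCH, a ubiquitin ligase, had 166, 238, 241 and 217 with HA-GATA2 and 97.4, 69.9, 126 and 159.6 with T354M. The site 28764 bp from PRRC1 had 299.8, 428, 403 and 417 with HA-GATA2 against 111, 126, 148 and 179 with T354M. The remaining ones of the first 12 were near ARHGAP19 and NEBL and in EML4, a microtubule protein, SLC25A40, a mitochondrial carrier, and MECOM.

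Besides GATA2, T354M reached at least 3 anti-HA libraries at 2 sites, neither with a wild-type or GATA2-low empty-vector peak. The site chr13:21289779-21290879, 82187 bp from ZDHHC20, which encodes a palmitoyltransferase, had T354M anti-HA heights of 46.3, 43.2, 77.9 and 50.6 and HA-GATA2 anti-HA heights of 119, 131, 165 and 73.1. Its anti-GATA2 heights were 72.6, 104, 120.5 and 104 with HA-GATA2 and 62.0, 59.7, 61.0 and 85.7 with T354M. The site chr12:105986688-105988014, 76214 bp from NUAK1, which encodes a kinase, had T354M anti-HA heights of 37.8, 44.5 and 47.8 and HA-GATA2 anti-HA heights of 78.3, 89.0, 101 and 66.3. At the anti-HA level T354M was lower than HA-GATA2 in every library of both sites that had a peak, except that 77.9 at the first exceeded the lowest HA-GATA2 value of 73.1.

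**Figure D5:**
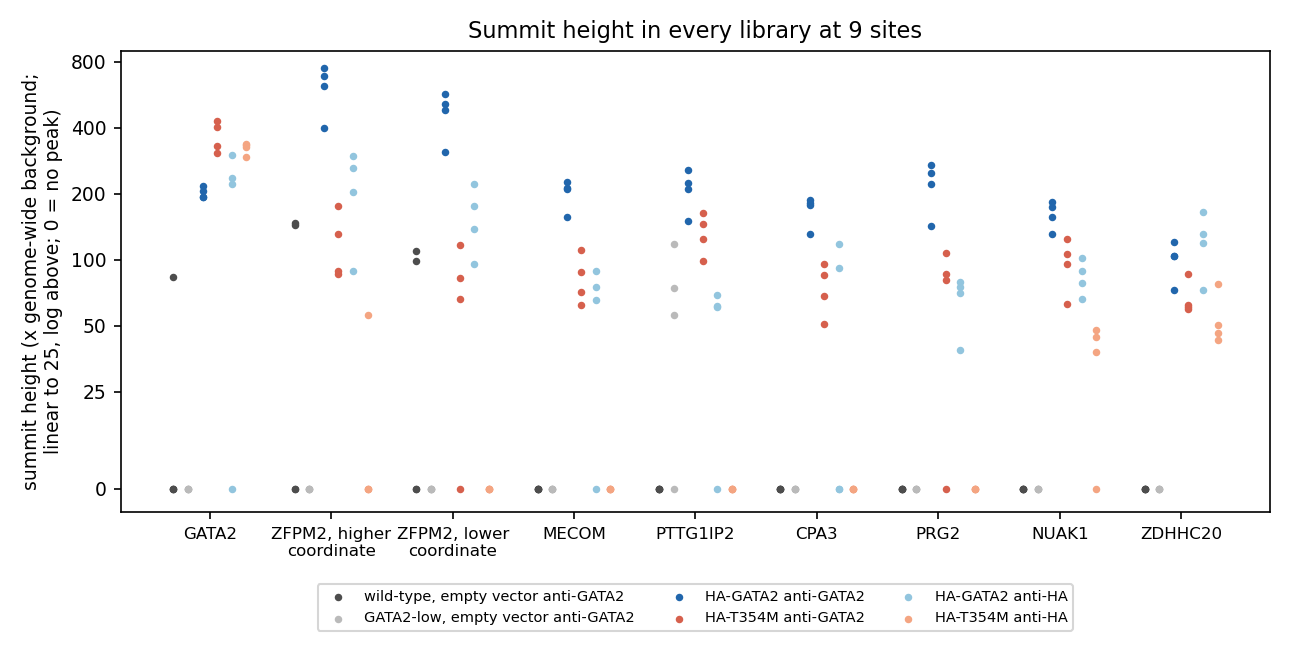
Summit height in every library at 9 sites, in multiples of the genome-wide background on an axis that is linear to 25 and logarithmic above, with points at 0 where no peak was called. HA-GATA2 anti-GATA2 points stand above T354M points at ZFPM2, MECOM, CPA3 and PRG2, the order is turned at GATA2, and T354M anti-HA points above 0 are in at least 3 libraries at GATA2, NUAK1 and ZDHHC20 and in 1 library at the higher ZFPM2 coordinate.

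Sites with a peak in every tagged anti-GATA2 library and none in wild-type cells made up a smaller group. At 50 of the 372 no wild-type library and all 8 tagged anti-GATA2 libraries had a peak, and 17 of these had HA-GATA2 anti-HA peaks in 4 of 4 libraries. One, named after its values were seen, lay at chr6:135121429-135122121, 59504 bp from MYB, a factor that keeps erythroid progenitors dividing, and T354M anti-HA found it in 2 of 4 libraries. The sites near NUAK1 and ZDHHC20 were also among the 17. The MYB site had heights of 86.7, 109, 139 and 134 with HA-GATA2 and 115, 69.9, 124 and 133 with T354M, so the groups overlapped there.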

How the data were processed

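Peak lists of 28 CUT&Tag libraries (7 groups of 4) were used; the IgG samples had no list used here. MACS2 2.2.7.1 and Bowtie2 2.2.5 on hg38, besides cutadapt 3.3, FastQC and deepTools 3.5.3, are named per the submitters' processing notes, and the sources used here give no settings. The authors deposited 1 list per library, each peak with a score (10 times -log10 q), a fold enrichment ratio over background, a -log10 p and a -log10 q of at least 6; these are the authors' values. Of 120964 deposited peaks, 455 on other sequences were dropped. Peaks were merged, counted per group and tested with Python 3.11.15, scipy 1.17.1 and statsmodels 0.14.6. Fragments and background were the Poisson pair that gives both the fold and the -log10 p of a peak; the caller's scaling was found per library, and the steps were checked on simulated data. The main test was Fisher's exact test per site on libraries with a peak, adjusted over every site that at least 1 of the 8 libraries held. Sites named in the text were the 12 highest by mean percentile (by -log10 q) over the tagged anti-GATA2 libraries, those with T354M anti-HA peaks in at least 3 libraries, and up to 3 per gene list within 10 kb of a gene (all for the core list); others are marked. Promoters shown were among those that held a member's summit, namely both with the motif and a pair selected from the rest. Genes came from RefSeq (GRCh38.p14). The members, gene lists and tests were chosen with earlier results of these data known.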

Additional observations from a re-analysis of the deposited data

Results flagged for a closer look

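Of 66 groups of 4 libraries checked, 7 had 1 library whose gap to the nearest of the others took up most of the group's range, beyond Dixon's 95% limit. Chance gives about 1 such group in 20. Of the share of the 372 sites with a peak, 3 values stood out: GATA2-low empty-vector replicate 4 was high at 10.215%, HA-GATA2 anti-GATA2 replicate 1 was low at 90.591%, and T354M anti-GATA2 replicate 2 was low at 47.312%. The median summit height in T354M anti-HA replicate 1 was low at 36.531 times background, over 5 sites. At single sites, T354M anti-GATA2 replicate 4 was high near ZDHHC20 (85.74), and HA-GATA2 anti-GATA2 replicate 1 was low at SLC2A1 (93.68) and at CPA3 (131.15).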

How the results depend on the processing

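An overlap of 50 bp, peaks trimmed to 100 bp around the summit and fragments scaled to the lowest depth moved no result by more than its limit (1.5 times for counts, 1 SD for mean shares). The count of 372 sites was 144 with 0 wild-type libraries allowed and 131 with 4 of 4 libraries of each tagged protein. Leaving out 1 library gave 257 to 7.0e+02 sites (the last rounded); the largest were 629 without T354M replicate 1 and 7.0e+02 without T354M replicate 2, where 2 of 3 libraries sufficed. A library left out was also left out of the merging into sites, a choice made after seeing the data. With lists of equal length, mean shares rose to 21.27% (GATA2-low empty vector), 79.71% (HA-GATA2 anti-HA) and 8.52% (T354M anti-HA), and with 4 of 4 of each tagged protein the last was 6.68%. Leaving out 1 library gave 2.60% to 5.20%, 46.15% to 64.61% and 1.78% to 3.32%; the rule without T354M replicate 2 was added to these and to the counts below after seeing the data.

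Full contrasts for HA-GATA2 against empty vector, 83 as reported, were 41 at -log10 q of at least 15, 154 with equal lists, 31 with 0 wild-type libraries and 43 with 4 of 4. For HA-GATA2 against T354M, 66 as reported, the same settings gave 34, 105, 21 and 29. For T354M against empty vector, 2 as reported, equal lists gave 7 and 0 wild-type libraries gave 1. Leaving out 1 library gave 83 to 178, 66 to 150 and 2 to 3, the highest of the first and second without HA-GATA2 anti-HA replicate 4. Adjusting over only sites with a peak in exactly 4 of 8 libraries made Fisher's exact test call 83, 2 and 66 sites in place of 0, 0 and 0. Empty vector had no anti-HA peak at 17269 of all 17277 sites. Against empty vector that restriction thus kept almost only full contrasts, so those calls were fixed in advance and add no evidence. Leaving out 1 library gave 0 to 0 calls in each.

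In the pairs of groups checked, same-numbered libraries showed little correlation of peak presence, -0.03 to 0.054. These were HA-GATA2 with T354M by either antibody, and each tagged protein with wild-type by anti-GATA2. The empty-vector anti-HA libraries were not checked, and such correlations cannot exclude a shared culture or batch. With the replicate block, an exact test over 4 pairs whose smallest p is 0.125, 0 sites were called in each comparison. Presence in 4 libraries limits each test, and peak lists show no signal below the caller's threshold.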
